A study of Homo sapiens with 4 samples.

Results

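Messages of the integrated stress response were examined in RNA recovered from HEK293T culture supernatant: the 10 genes ATF4, ATF3, DDIT3, DDIT4, SESN2, TRIB3, CHAC1, ASNS, PPP1R15A and CEBPB, taken by gene symbol from the 61543 genes of the count table. All 10 were found and all 10 were among the 20476 genes with enough counts to be tested. As a share of the RNA, 8 of the 10 were higher with the EPN24-Cas13d fusion than with EPN24 alone, against a background of 32.6% of all tested genes called higher. The increase was very uneven: SESN2 was 6.28 log2 units higher, TRIB3 5.97, DDIT4 4.53, ATF3 2.44 and ATF4, the central factor of the pathway, 1.14. DDIT3 and PPP1R15A, also classical markers of the response, did not pass the test. With the trend over transcript GC content removed, 5 of the 10 were higher and 2 lower, against 29.2% and 39.3% of genes. ATF4 was not called there, nor with a stricter filter on low values or a background subtracted.

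The study used POND-seq to map which RNAs Cas13d, an RNA-guided RNA nuclease, binds in living cells. EPN24 is a protein that assembles into nanocages which leave the cell, and RNA held by a protein fused to it is carried into the medium. The labels give 2 groups of 2 libraries, EPN24-Cas13d (a fusion) and EPN24 (the nanocage protein without Cas13d), both from the HEK293T line, a human embryonic kidney line, in the same medium. They state no stress treatment, guide RNA, dose, time or separate cultures for the replicates, so the p-values reflect variation among these libraries alone, and that variation may be technical. Because RNA was read in the supernatant, an RNA's abundance in the producing cells, its capture by the fusion and the number of nanocages released cannot be told apart.

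In the integrated stress response, sensor kinases phosphorylate the alpha subunit of the initiation factor eIF2 when cells meet amino acid shortage, unfolded protein, viral RNA or heme deficiency. Most translation slows, while the ATF4 message, which carries upstream open reading frames, is translated more. ATF4 then drives transcription of genes for amino acid supply, redox balance and, through DDIT3 (CHOP), cell death, and PPP1R15A (GADD34) returns the system to rest by promoting dephosphorylation of eIF2.

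ATF4 acts with C/EBP proteins at a composite DNA element, and promoters from RefSeq (GRCh38.p14, a short window around each gene's start) were searched on both strands for its core, written TGATGNAA, and for the cAMP response element TGACGTCA. The 4 matches among the members are shown because they are the member promoters with such an element in the window. Each is printed in the direction of transcription with the match in capitals and 20 bases on either side. In CHAC1 the capitals are the core read on the opposite strand.
ATF3, chr1:212565196-212565243, plus strand: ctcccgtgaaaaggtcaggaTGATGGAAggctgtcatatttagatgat
ASNS, chr7:97872449-97872496, minus strand: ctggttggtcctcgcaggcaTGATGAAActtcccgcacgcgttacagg
CHAC1, chr15:40953242-40953289, plus strand: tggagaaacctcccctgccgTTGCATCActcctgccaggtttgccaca
PPP1R15A, chr19:48872343-48872390, plus strand: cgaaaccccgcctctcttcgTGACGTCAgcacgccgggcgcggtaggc
The composite core lay in 3 of the 17 promoters listed for the 10 members, and in 1270 of all 35116 promoters (3.62%). The cAMP response element lay in 1 member promoter and in 1.85% of all promoters. A match describes these letters only, and promoters of the other 6 members held neither motif within this window.

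The counted RNA itself is of more direct interest in a binding assay. The first 90 bases of coding sequence, from the GENCODE v29 transcripts (GRCh38), are shown for the member with the largest difference (SESN2), the member with the smallest (PPP1R15A) and the members of highest and lowest coding GC content (CEBPB and ASNS), with the start codon in capitals.
SESN2: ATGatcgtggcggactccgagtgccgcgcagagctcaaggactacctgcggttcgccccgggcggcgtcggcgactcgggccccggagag
PPP1R15A: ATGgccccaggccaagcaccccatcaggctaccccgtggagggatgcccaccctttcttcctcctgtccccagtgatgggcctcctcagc
CEBPB: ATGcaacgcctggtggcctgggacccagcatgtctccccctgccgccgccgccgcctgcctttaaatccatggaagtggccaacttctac
ASNS: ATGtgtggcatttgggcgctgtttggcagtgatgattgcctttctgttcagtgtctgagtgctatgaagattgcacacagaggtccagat
Over the whole coding sequence GC content was 61.9% in SESN2, 59.7% in PPP1R15A, 73.6% in CEBPB and 43.1% in ASNS, against a median of 53.4% over 15219 tested genes. At the third positions of codons it was 79.0% in SESN2, 55.9% in PPP1R15A, 95.4% in CEBPB and 41.7% in ASNS, so SESN2 and PPP1R15A were close over the whole sequence and apart at those positions.

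Total gene counts were 5097332 and 4863449 in EPN24-Cas13d and 1830860 and 1903492 in EPN24. On the TMM-scaled library sizes of the tested genes, a floor of 3 counts stands at 0.721 to 1.42 CPM. Levels are given as CPM after TMM scaling, which compares shares of the RNA and not amounts. The ERCC spike-in RNA, added in equal amount to each supernatant, gave 58.1 ± 1.68 gene counts per spike-in count in EPN24-Cas13d and 3.95 ± 0.231 in EPN24 (SD, n = 2), a ratio of 14.7. All 7 markers fixed for HEK293T had at least 3 counts in every library, and summed to 1706 and 1711 CPM of unscaled gene counts with the fusion against 385 and 389.9 CPM without it. VIM carried that difference in the sum, and the other 6 markers summed to 234 and 224 CPM with the fusion and 232 and 216 CPM without it. That near-equal sum holds shifts in opposite directions. With TMM 5 of the 7 markers were called higher, 1 lower (NEFM, −1.42) and 1 not called. Of all tested genes 32.6% were called higher and 48.2% lower. Of 6 markers of blood and liver cells, the sum was 14 and 15 counts with the fusion and 40 and 27 without it. In CPM of unscaled gene counts that was 2.75 and 3.08 with the fusion against 21.8 and 14.2 without it. HBA1 was at 0 in all 4 libraries and APOA1 at 0 in both EPN24-Cas13d libraries. The 361 olfactory receptor genes, normally active in sensory neurons of the nose, carried 0.179 and 0.141 counts per kilobase in EPN24-Cas13d and 1.85 and 1.44 in EPN24, taken here as a background, which was higher in the controls.

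Among the transcription factors, ATF4 was the most abundant message, ATF3 showed the largest difference and DDIT3 none that passed the test. ATF4 (ENSG00000128272.18, chromosome 22, 39519695 to 39522683, plus strand), the factor whose translation defines the response, stood at 865 and 801 CPM in EPN24-Cas13d and 314 and 445 CPM in EPN24. Both fusion libraries were above both control libraries. The log2 fold change was 1.14 (SE 0.14, edgeR quasi-likelihood adjusted p = 4.44e-06, by the Benjamini-Hochberg method), and 0.76 without EPN24 replicate 1. The call was lost with the GC trend removed (−0.12, edgeR adjusted p = 0.445), with a stricter filter on low values and with a background subtracted. ATF4's position relative to other genes was modest, since 70.3% of tested genes had a lower fold change.

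ATF3 (ENSG00000162772.17, chromosome 1, 212565334 to 212620777, plus strand), an immediate-early stress factor that is itself a target of ATF4, stood at 635 and 589.95 CPM in EPN24-Cas13d against 101 and 125 CPM in EPN24. The groups were well apart, with a log2 fold change of 2.44 (SE 0.13, edgeR adjusted p = 3.54e-10). CEBPB (ENSG00000172216.6, chromosome 20, 50190830 to 50192668, plus strand), a C/EBP protein that pairs with ATF4, had 36.1 and 24.7 CPM in EPN24-Cas13d and 9.81 and 8.99 CPM in EPN24. Its fusion libraries differed from each other more than its controls did, but all lay above the controls, with a log2 fold change of 1.69 (SE 0.33, edgeR adjusted p = 3.86e-04). The call turned with the GC trend removed (−1.01, edgeR adjusted p = 0.0192) and was lost with a background subtracted (0.95, 0.0550). CEBPB shares 231 exon bases with the antisense gene CEBPB-AS1, which had 25.5 and 23 counts with the fusion and 16 and 5 without it. Whether the counting used strand is not given, so reads in the shared bases cannot be assigned to either gene.

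DDIT3 (ENSG00000175197.13, chromosome 12, 57516588 to 57521737, minus strand) encodes CHOP, the factor that links prolonged stress to cell death. It had 15.4 and 16.4 CPM in EPN24-Cas13d and 13.8 and 10.4 CPM in EPN24. The groups did not overlap, but the difference of 0.38 on the log2 scale was about its own SE of 0.34 (edgeR adjusted p = 0.311). DDIT3 shares 355 of its 1307 exon bases with MARS1 on the other strand, a methionyl-tRNA synthetase gene with 4409 and 4266.67 counts with the fusion and 157.17 and 93 without it, while DDIT3 itself had 64, 65, 31 and 22. The part of that overlap in the DDIT3 counts was not tested.

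SESN2, TRIB3 and DDIT4, described next, had the largest differences of the 10. SESN2 (ENSG00000130766.5, chromosome 1, 28259518 to 28282491, plus strand) encodes sestrin 2, a leucine-binding protein that keeps the growth kinase complex mTORC1 inactive. Its level was 3716 and 3699.8 CPM in EPN24-Cas13d and 49.5 and 45.4 CPM in EPN24. No other member came near this level with the fusion, and the replicates agreed closely in both groups. The log2 fold change was 6.28 (SE 0.12, edgeR adjusted p = 3.47e-13), rank 41 of 20476. Per kilobase of exon SESN2 ranked 4 among tested protein-coding genes with the fusion in both replicates, and 561 and 701 without it.

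TRIB3 (ENSG00000101255.12, chromosome 20, 362835 to 397559, plus strand), a pseudokinase induced by ATF4 and CHOP that dampens AKT signalling, had 437 and 489 CPM in EPN24-Cas13d and 10.7 and 3.79 CPM in EPN24. The control libraries held just 24 and 8 counts, so the size of the difference is less sure than its presence. The log2 fold change was 5.97 (SE 0.23, edgeR adjusted p = 1.61e-11), 6.78 without EPN24 replicate 1 and 5.36 without EPN24 replicate 2. Over pooled counts of 3762 and 32 the log2 ratio was 5.98, with an exact 95% binomial interval of 5.48 to 6.53 that covers counting error only. Of whole count values above 0 in a library, 66.8% to 72.4% were even numbers. Whether the mates of a read pair were counted singly was not tested, and if so this and the other count intervals are too narrow.

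DDIT4 (ENSG00000168209.6, chromosome 10, 72273919 to 72276036, plus strand) encodes REDD1, which like sestrin 2 lowers mTORC1 activity. It had 646 and 672 CPM in EPN24-Cas13d and 31.2 and 25.6 CPM in EPN24. Each fusion library was more than an order of magnitude above each control library, with a log2 fold change of 4.53 (SE 0.15, edgeR adjusted p = 3.38e-12).

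The metabolic targets were low in abundance and moderately higher. ASNS (ENSG00000070669.17, chromosome 7, 97851677 to 97872542, minus strand), asparagine synthetase and a textbook ATF4 target, had 49.0 and 45.3 CPM in EPN24-Cas13d and 16.1 and 16.1 CPM in EPN24, with a log2 fold change of 1.55 (SE 0.25, edgeR adjusted p = 6.64e-05). A lncRNA on the same strand (ENSG00000284707) shares 2415 of the 4896 exon bases of ASNS, and its counts (205.33, 182, 37.67 and 37) nearly equalled those of ASNS (203.5, 180, 35.5 and 34). Adding the lncRNA to ASNS, an alternative chosen after the data were seen, gave 98.3 and 91.1 CPM against 32.6 and 33.6 CPM and a log2 fold change of 1.52 (edgeR adjusted p = 4.64e-06). The level of ASNS is therefore uncertain by about the size of the lncRNA. Its fold change hardly moved, but counts nearly equal to its own in each library could hardly move it. The addition is therefore no check on the fold change.

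CHAC1 (ENSG00000128965.13, chromosome 15, 40952962 to 40956512, plus strand), which degrades glutathione, had 19.7 and 18.6 CPM in EPN24-Cas13d and 3.57 and 4.73 CPM in EPN24. The groups were apart, with a log2 fold change of 2.20 (SE 0.41, edgeR adjusted p = 2.65e-04). It rests on 156 counts against 18, a log2 ratio of 2.21 with an exact 95% interval of 1.51 to 3.01 that covers counting error only. With the GC trend removed CHAC1 stood at 0.0016 and was not called.

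PPP1R15A (ENSG00000087074.8, chromosome 19, 48872421 to 48876058, plus strand), the feedback subunit that brings protein phosphatase 1 to eIF2, was the member with overlapping groups. It had 99.0 and 112 CPM in EPN24-Cas13d and 108 and 100.4 CPM in EPN24. The log2 fold change was 0.016 (SE 0.15, edgeR adjusted p = 0.922). With 412 and 444 counts against 242 and 212 it was well covered, and its SE was close to that of SESN2, ATF3 and DDIT4.

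**Figure D1:**
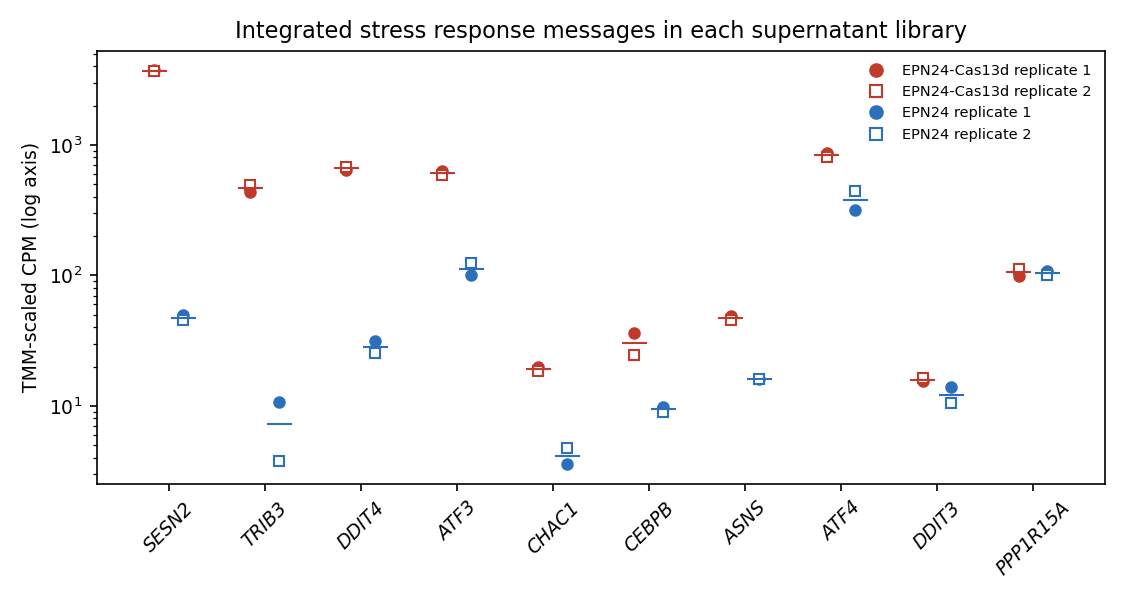
Level of each integrated stress response message in the 4 supernatant libraries, in TMM-scaled CPM on a log axis, ordered by fold change; points are single libraries and short lines are group means. SESN2 stands above all other members with EPN24-Cas13d, and the PPP1R15A libraries of both groups overlap between 99.0 and 112 CPM.

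In 9 of the 10 members both EPN24-Cas13d libraries exceeded both EPN24 libraries, which held for 36.8% of all tested genes. By the edgeR test 8 were higher, 0 lower and 2 not called; the count of lower members was also 0 at an unadjusted p under 0.05, by DESeq2 and by limma-voom. Scaled to total gene counts, where 27.1% of tested genes were called higher and 54.5% lower, 8 members were higher and 1, PPP1R15A, was lower (−0.56). The median log2 fold change of the members was 1.94, beside −0.96 for all tested genes, of which 48.2% were called lower, and −0.40 for the 15507 protein-coding ones, of which 37.0% were called higher and 42.9% lower. The 10 were chosen as known genes of the pathway and with earlier results of these data known. These counts therefore describe them and are not a test of the pathway.

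The order of the members by level per kilobase of exon differed between the groups. In EPN24 it ran ATF4 (145 CPM per kb), PPP1R15A (34.0), ATF3 (27.9), SESN2 (13.7), DDIT4 (13.4), DDIT3 (9.27), CEBPB (5.11), ASNS (3.28), TRIB3 (2.20) and CHAC1 (2.02), where SESN2 and DDIT4, and TRIB3 and CHAC1, overlapped. In EPN24-Cas13d it ran SESN2 (1071 CPM per kb), ATF4 (319), DDIT4 (311), ATF3 (152), TRIB3 (141), PPP1R15A (34.4), CEBPB (16.5), DDIT3 (12.1), ASNS (9.63) and CHAC1 (9.35), where ATF4 and DDIT4, ATF3 and TRIB3, and ASNS and CHAC1, overlapped. SESN2 moved from the middle of the order to its top, and TRIB3 from near the bottom to the middle. PPP1R15A went from just below ATF4 to below TRIB3 with an almost equal level in both groups.

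Summed over the 10 members, counts made up 0.530% ± 0.00247 of gene counts in EPN24-Cas13d and 0.0838% ± 0.00471 in EPN24 (SD, n = 2), a ratio of 6.33. SESN2 supplied 57.1% ± 0.129 of the members' counts with the fusion and 6.66% ± 1.23 without it. ATF4 went the other way, from 52.2% ± 6.29 of the members' counts in EPN24 to 12.8% ± 0.628 in EPN24-Cas13d. Without SESN2 the other 9 members made up 0.227% and 0.0782% of gene counts, a ratio of 2.91.

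Scaling to the spike-in RNA asks how much of each message a volume of supernatant held. On that scale all 10 members were higher in EPN24-Cas13d, where 58.4% of tested genes were called higher and 2.33% lower, with a median of 5.29 log2 units beside 2.38 for all tested genes. Counts per spike-in count were 799-fold higher for SESN2, 630-fold for TRIB3, 236-fold for DDIT4 and 56.3-fold for ATF3. They were 48.0-fold higher for CHAC1, 33.0-fold for CEBPB, 30.3-fold for ASNS and 22.9-fold for ATF4. DDIT3 at 13.3-fold and PPP1R15A at 10.4-fold were under the 14.7-fold ratio of summed gene counts, a description with no test of its own. Both were above the median tested gene, since 62.8% of tested genes had a lower fold change than DDIT3 on this scale and 59.2% a lower one than PPP1R15A. Both also passed the test on this scale (edgeR adjusted p = 9.07e-07 and 8.30e-09). The members together were 93.2-fold higher per spike-in count, and 42.8-fold without SESN2.

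**Figure D2:**
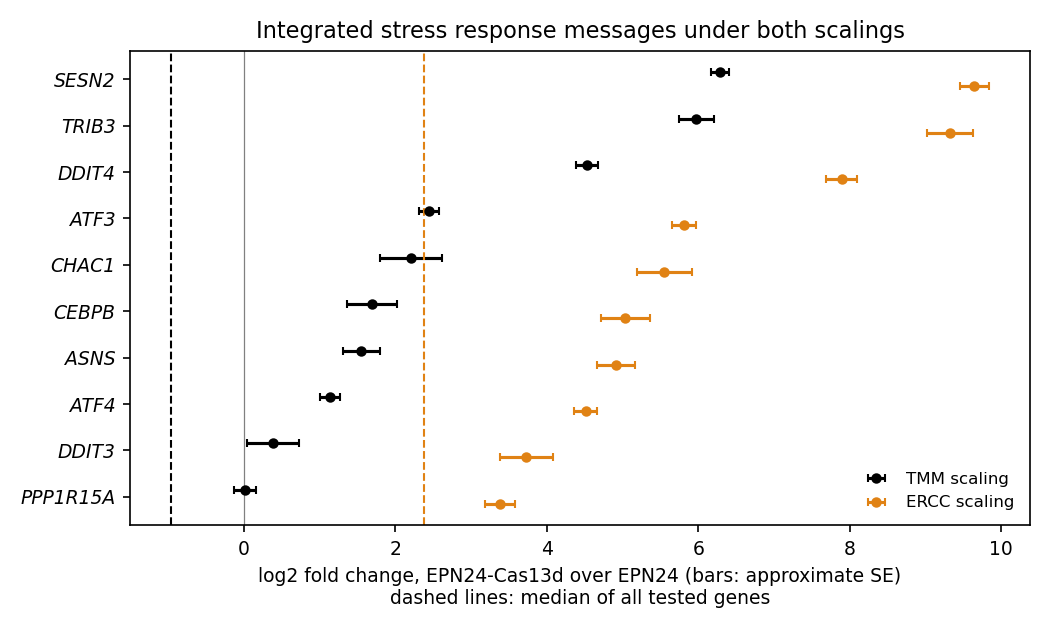
Log2 fold change of each member, EPN24-Cas13d over EPN24, with TMM scaling (black) and with ERCC scaling (orange); bars are approximate SEs and dashed lines the medians of all tested genes under each scaling. The order of the members is the same under both, and DDIT3 and PPP1R15A lie near 0 with TMM only.

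In the authors' deposited table the log2 fold changes of the members ran from 3.33 for PPP1R15A to 9.60 for SESN2. The largest distance between the authors' deposited table and the ERCC-scaled values was 0.052, so that table is on the amount scale and not on the share scale.

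Composition of the transcript moved with the fold change across the whole table. Over 15424 tested protein-coding genes, GC content of the longest transcript and log2 fold change had Pearson r = 0.48 and Spearman rho = 0.50, a description across genes that share the same 4 libraries. The members were GC-rich, with a median of 58.5% against 49.5%, and shorter, with a median exon length of 2839 bp against 5264 bp. Among the 10 members themselves r was 0.29 and rho 0.27. The part of GC content in the members' differences was not tested, and the comparison with genes of like GC content is as follows.

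In the bin of 55 to 60% GC (2549 genes) the median log2 fold change was 1.30 and the upper quartile 2.79. SESN2 at 59.5% GC and DDIT4 at 58.1% lay above that quartile, ATF4 at 56.7% near the median, and PPP1R15A at 58.8% below the median. In the bin of 60 to 65% (1838 genes, median 1.95, upper quartile 3.26) TRIB3 was above the quartile and CHAC1 near the median. In the bin of 45 to 50% (2623 genes, median −0.22, upper quartile 1.40) ATF3 and ASNS were above the quartile and DDIT3 between median and quartile. CEBPB, at 66.2% GC, was under the median of 2.35 of its bin (605 genes). In all, 5 of 10 members lay above the upper quartile of their own bin.

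With a smooth GC trend taken out of the fold changes, where 29.2% of genes were called higher and 39.3% lower, 5 members were higher, 2 lower and 3 not called. SESN2 (4.54), TRIB3 (4.01), DDIT4 (3.02), ATF3 (2.93) and ASNS (1.99) stayed higher on this log2 scale. CEBPB turned to −1.01 (edgeR adjusted p = 0.0192) and PPP1R15A to −1.61 (6.08e-07), both called lower. ATF4 stood at −0.12 (0.445) and CHAC1 at 0.0016 (0.998), so their calls were lost. The median of all tested genes on this scale was −0.59, so a call against 0 does not compare a member with genes of like composition. The 5 higher members were well above that median. ATF4, CHAC1 and DDIT3 (0.34) were nearer to it but above, and CEBPB and PPP1R15A were below it.

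**Figure D3:**
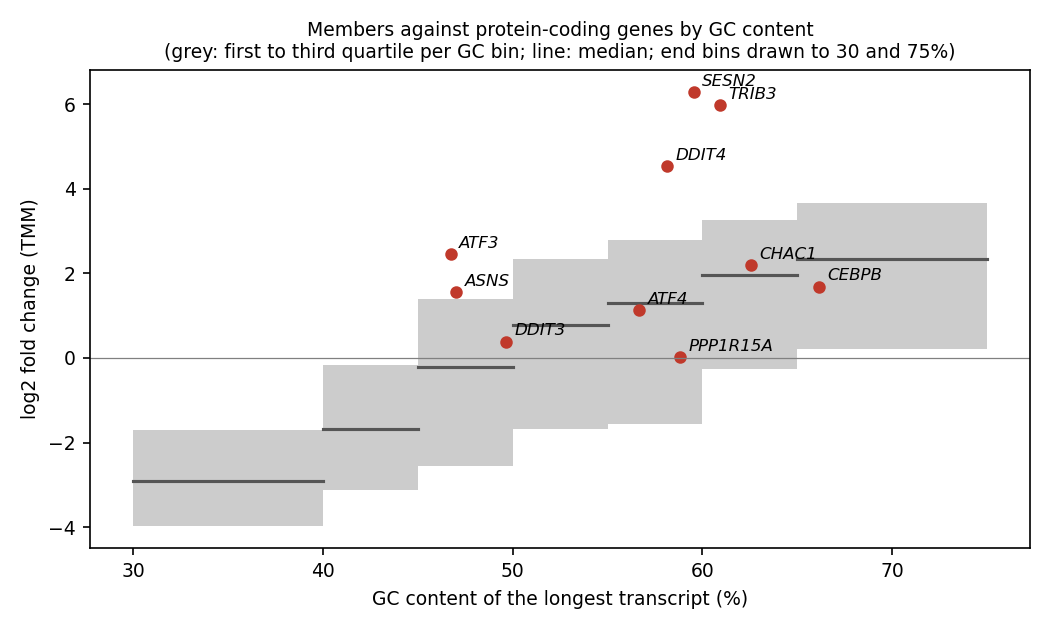
TMM log2 fold change of each member against the GC content of its longest transcript; grey boxes span the lower to upper quartile of tested protein-coding genes in each GC bin and dark lines mark bin medians. SESN2, TRIB3, DDIT4, ATF3 and ASNS lie above the boxes, and ATF4, CHAC1, CEBPB, DDIT3 and PPP1R15A lie inside them.

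The other genes of the pathway were read against the shares over all tested genes, 32.6% higher and 48.2% lower with TMM and 58.4% higher per spike-in RNA. Their lists were also chosen with earlier results of these data known. Of 10 eIF2 kinases and their regulators, 3 were higher and 5 lower with TMM (median −0.59), close to those shares, while per spike-in RNA 8 were higher and 2 not called. With the GC trend removed 5 were higher and 1 lower. GCN1, the ribosome-bound activator of the kinase GCN2, was higher at 781 ± 0.885 CPM against 114 ± 7.85 CPM, a log2 fold change of 2.77. EIF2AK4, which encodes GCN2, was higher by 1.33, and IMPACT, an inhibitor of that activation, was lower with a log2 fold change of −3.10, or 0.27 and not called per spike-in RNA. Of 8 subunits of eIF2 and of its exchange factor eIF2B, 3 were higher and 3 lower with TMM (median 0.048), all 8 were higher per spike-in RNA, and 5 were higher and 1 lower with the GC trend removed. EIF2B5 had the highest value at 2.41 and EIF2B2 2.22, both subunits of the exchange factor. EIF2S2 and EIF2S3, subunits of eIF2 itself, were lower with TMM at −2.04 and −0.66 and both higher per spike-in RNA, EIF2S2 at 1.31.

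Of 4 phosphatase subunits, PPP1CA was higher with a log2 fold change of 2.12 and 3 were lower with TMM, while per spike-in RNA 3 were higher and 1 not called. With the GC trend removed 0 were higher and 2 lower, so the call of PPP1CA was lost. PPP1R15B, the constitutive counterpart of PPP1R15A, stood at 26.5 ± 4.70 CPM against 87.6 ± 15.5 CPM (−1.72, or 1.62 per spike-in RNA), and PPP1CB had the lowest value at −3.04 (0.31 and not called per spike-in RNA). Of 19 partners and relatives of ATF4 in the bZIP family, 18 were tested and 7 were higher and 7 lower with TMM (median −0.32), while per spike-in RNA 14 were higher and 4 not called (median 3.02). With the GC trend removed 7 were higher and 6 lower, and the highest value was 2.42. The values that follow are with TMM unless marked. CEBPA was the highest at 4.35 and JUND, an AP-1 subunit, stood at 564 ± 29.5 CPM against 67.4 ± 4.30 CPM (3.06). FOS was the lowest with TMM at −3.97 and was not called per spike-in RNA (−0.61), and JUN was lower with TMM at −0.69 and higher per spike-in RNA at 2.68.

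The target genes of amino acid supply were mostly higher: with TMM 19 of 25 were higher, 2 lower and 4 not called, against 32.6% and 48.2% of all tested genes called higher and lower. The median was 2.93 log2 units, and 6.29 per spike-in RNA. SLC7A5, the large neutral amino acid transporter that imports leucine, reached 2228 ± 23.9 CPM against 31.2 ± 11.4 CPM (6.16), close to the difference of SESN2. MARS1 stood at 1067 ± 9.97 CPM against 57.0 ± 18.4 CPM (4.22). SLC38A2 and SLC7A11, carriers of neutral amino acids and of cystine, were lower with TMM at −2.32 and −2.18. Per spike-in RNA SLC38A2 was higher by a narrow margin (1.01, edgeR adjusted p = 0.0499) and SLC7A11 was not called (1.15, 0.204). With the GC trend removed 22 of the 25 were higher and 3 not called, against 29.2% of all genes called higher. SLC7A11 is named as the other lower gene of this list, a choice made after its values were seen.

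Of 15 other stress targets of ATF4 or CHOP, 13 were tested and 4 were higher, 3 lower and 6 not called with TMM (median 0.38), a share of higher genes near the 32.6% of all tested genes. Per spike-in RNA 11 were higher and 1 lower, and with the GC trend removed 4 were higher and 5 lower (median −0.49). TNFRSF10B, a death receptor that CHOP induces, was the highest at 2.98, and STC2, a secreted glycoprotein, was higher by 1.65. CREBRF had 2 and 0 counts with the fusion and 49 and 44 without it, a log2 ratio of −6.44 with an exact 95% interval of −9.51 to −4.55. The interval covers counting error only.

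Close relatives of the members were not higher as a share of RNA. Of 6 paralogs, 0 were higher and 4 lower by edgeR with TMM, against 32.6% and 48.2% of all tested genes. Per spike-in RNA 3 were higher and 1 lower, against 58.4% and 2.33%. A difference of these 6 genes from those shares was not tested. With TMM 0 were higher at an unadjusted p under 0.05, by DESeq2 or by limma-voom. With the GC trend removed 0 were higher and 4 lower, against 29.2% and 39.3% of genes. On that scale 2 were higher at an unadjusted p under 0.05 (highest value 0.93). The paralogs had less GC, from 36.7% in CHAC2 to 52.5% in TRIB1, than SESN2, TRIB3, DDIT4 and CHAC1 (58.1% to 62.6%). The part of GC content in this contrast was not tested. SESN1, like SESN2 a sestrin, had a log2 fold change of −0.28 (not called) and SESN3 −1.43, beside 6.28 for SESN2. TRIB2 (−0.99, not called) and TRIB1 (−2.72) stood beside 5.97 for TRIB3. DDIT4L and CHAC2 had 0 counts in both EPN24-Cas13d libraries, and against a floor of 3 counts per library DDIT4L was at least 9.59-fold lower and CHAC2 at least 4.95-fold lower. With these at their bounds the median of the paralogs was −1.87. TRIB1, TRIB2 and CHAC2 are named here to complete the families, a choice made after their values were seen.

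**Figure D4:**
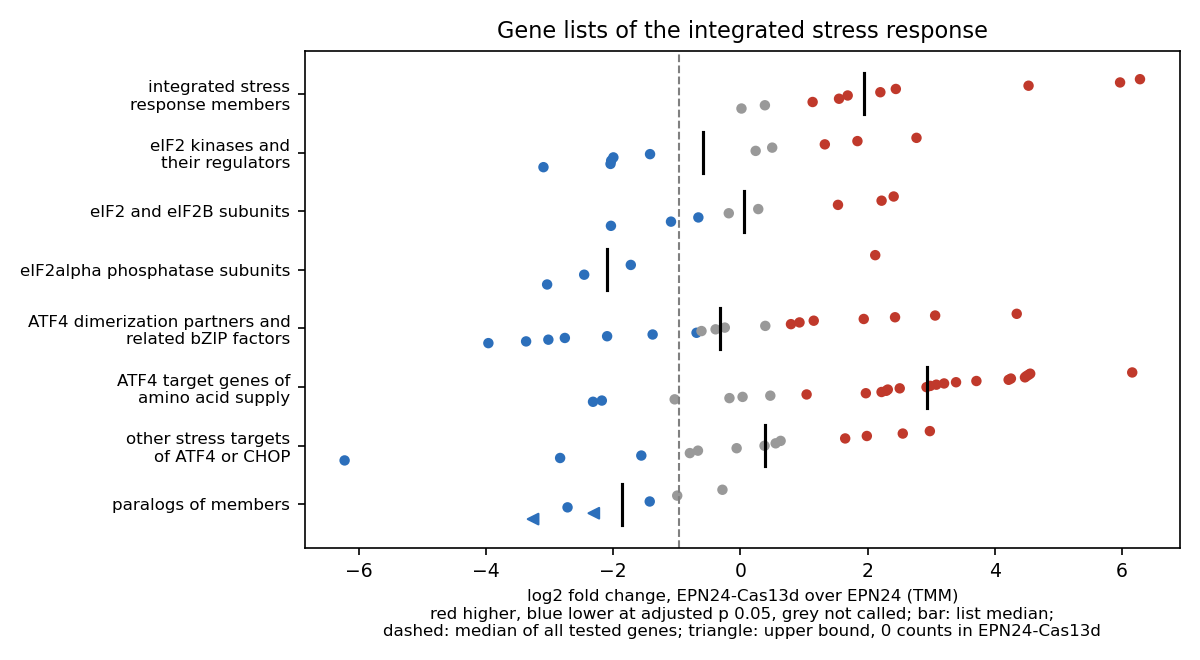
TMM log2 fold change of every tested gene in 8 lists of the pathway; red points were higher and blue points lower in EPN24-Cas13d at an adjusted p of 0.05, grey points were not called, black bars are list medians and triangles are upper bounds for genes at 0 counts. The members and the amino acid supply genes lie mostly to the right of 0, and the paralogs lie to its left.

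The genes whose levels over the 4 libraries lay nearest to SESN2, by Euclidean distance of log2(CPM + 1), were AEN (distance 0.79), CBX6 (1.02) and TRIM28 (1.42). AEN had 2571 ± 17.5 CPM in EPN24-Cas13d and 51.8 ± 4.45 CPM in EPN24, and CBX6 2965 ± 70.9 CPM and 34.7 ± 12.5 CPM. The nearest to ATF4 were the ribosomal protein genes RPS6 (0.54), RPL10 (0.61) and RPS19 (0.77). RPS6 stood at 862 ± 22.5 CPM against 467 ± 31.4 CPM, a log2 fold change of 0.88 beside 1.14 for ATF4.

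Across the other ways of processing tried, SESN2, TRIB3 and DDIT4 held the 3 largest values in every setting, and ATF3 and ASNS were also called higher in each. With a stricter filter on low values, where 40.7% of genes were called higher and 41.7% lower, 7 members were higher and 1 lower, and ATF4 was not called (0.28, edgeR adjusted p = 0.0797). All 10 members fell by like amounts under that filter, SESN2 from 6.28 to 5.43. The median of all tested genes was 0.015 there, against −0.96 with the main filter. After subtraction of a background taken from the olfactory receptor genes, where 33.9% of genes were called higher and 36.7% lower, 6 members were higher and 1 lower, and ATF4 again was not called (0.19, 0.244). PPP1R15A was called in both directions, from −1.61 with the GC trend removed to 3.38 per spike-in RNA.

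**Figure D5:**
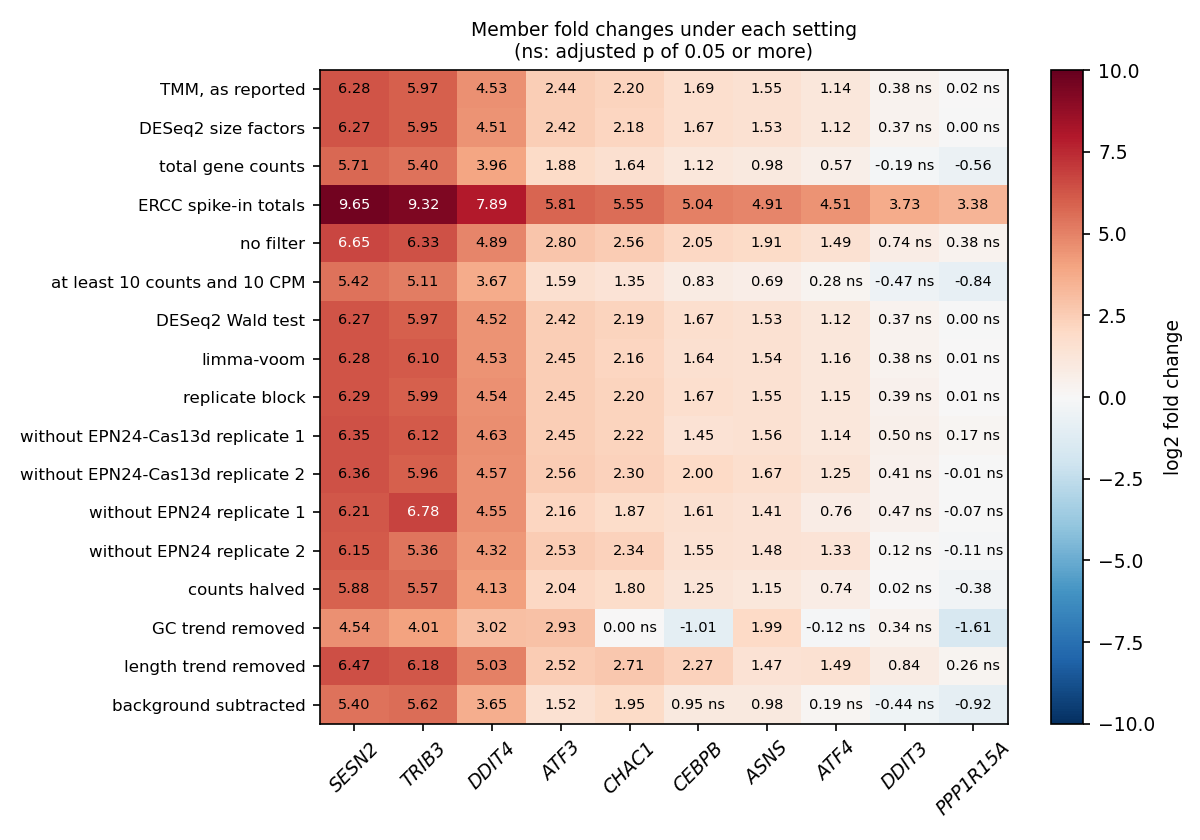
Log2 fold change of each member (columns) under each processing setting (rows), with colour and number giving the value and ns marking an adjusted p of 0.05 or more. SESN2, TRIB3 and DDIT4 are the 3 highest values in every row, and PPP1R15A changes sign between rows.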

How the data were processed

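Total RNA of cleared, filtered supernatant was sequenced with ERCC spike-ins, per the labels' protocols. Per the submitters' processing notes, tools included the aligner STAR 2.7.10a, the counter featureCounts 2.0.1 and DESeq2 1.36.0, with hg38 or GRCh38. Annotation release, strand and multi-mapping are each not given in the sources used here. Expected counts per gene were deposited without normalization, and 7.83% to 9.20% of a library's values had fractions. Of 61640 rows, 5 that name no gene or are broken were left out. The authors' deposited DESeq2 table holds a mean normalized signal, log2 fold changes, a Wald score and p-values, and supplied gene symbols.

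Rounded counts were filtered with filterByExpr and fitted with edgeR 4.0.16 under R 4.3.3 (TMM, robust quasi-likelihood, Benjamini-Hochberg threshold 0.05). limma 3.58.1 and DESeq2 1.42.0 served as alternatives. SEs are approximate, the size of the log2 fold change over root F. CPM values are means ± SD of 2 libraries. Chi-square per degree of freedom between replicates was 2.39 in EPN24-Cas13d and 3.39 in EPN24, above the level of independent counts. Mates counted separately would raise that level, so an excess over sampling noise is not settled. In simulated data of 20476 genes, 100 were changed 2-fold and 100 changed 4-fold. The test found 39% and 90% of these and made 10 false calls. Unlike these data, the simulation had few changed genes, up and down in equal number, and no GC trend. Its error rate therefore does not carry over to them. GC content came from GENCODE v29 transcripts and covered 97.3% of tested genes. Exon overlaps and gene coordinates came from the exon positions deposited with the counts, whose annotation release is not given.

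The 10 members and all gene lists were chosen with earlier results of these data known. Named genes were every member, the 2 genes of highest mean CPM and the highest and lowest called fold change of each other list, and the 3 genes nearest to SESN2 and to ATF4, beside exceptions marked where they are named.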

Additional observations from a re-analysis of the deposited data

How the results depend on the processing

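DESeq2 size factors, no filter, the DESeq2 test, limma-voom and each library left out kept all 10 members' calls. With libraries left out in turn, 6107 to 6617 genes were higher and 6809 to 8361 lower, 8 members were higher and 0 lower each time, and the members' ratio per spike-in count ran from 91.6 to 94.8. Per spike-in RNA 11960 genes were higher and 477 lower, against 6685 and 9871 with TMM. The stricter filter left 4889 lower genes and background subtraction 5744. PPP1R15A was lower in 5 settings: −0.56 with total gene counts, −0.84 with the stricter filter (10 counts and 10 CPM in 2 libraries), −0.38 with counts halved, −0.92 with background subtracted and −1.61 with the GC trend removed. It was the 1 lower member in the first 4 of these. With the GC trend removed 5 members were higher and 2 lower, CEBPB turning to −1.01 and ATF4 to −0.12. CEBPB was not called with background subtracted (0.95, edgeR adjusted p = 0.0550), and DDIT3 was called higher with the length trend removed (0.84, 0.0368). The cause of these shifts was not tested. The GC and length trends were lowess curves of span 0.3.

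A replicate block gave 6545 higher and 8496 lower genes and left 8 members higher and 0 lower. The deviations of same-numbered libraries showed no shared part (r = −0.0041 over 20476 genes). Counting noise can hide a shared part, and the labels state no pairing, so whether these libraries were made together is not known.

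Limits: 2 libraries per group, 8 to 31 counts for CHAC1, TRIB3, CEBPB and DDIT3 in EPN24, and unresolved overlaps at ASNS, DDIT3 and CEBPB.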
